A study of Homo sapiens with 18 samples.

Results

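Eph receptors form a family of receptor tyrosine kinases, and their ligands, the ephrins, are held in the membrane of the neighbouring cell. Binding at a cell contact signals into both cells. Ephrins of the A class are anchored by a lipid and those of the B class span the membrane, and each class mainly binds receptors of the same letter, with EPHA4 also binding ephrins of the B class. In the intestine, receptors of the B class are made near the crypt base under Wnt signalling and B-class ephrins towards the differentiated cells, an arrangement that keeps the cell populations apart.

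The genes described are 10 members of these families present in colorectal epithelium: the receptors EPHA1, EPHA2, EPHA4, EPHB2, EPHB3 and EPHB4 and the ligands EFNA1, EFNA4, EFNB1 and EFNB2. They were taken by name, with earlier results of these data known, and their probes were found through the platform annotation. Of the 10 genes, 9 had a named probe, and EPHB2 was not analysed here. EFNA1 and EFNA4 had 2 probes each, which gave 11 probes of the 47323 on the array. All 11 passed the filter on dim probes, a detection p-value under 0.05 on 3 or more arrays, as did 25586 of all probes.

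RNA was measured on 18 single-colour Illumina BeadChip arrays of HCT116, LS174T and SW480, 3 established cell lines from human colorectal cancers. Each line had 3 arrays from cells given 50 nM calcitriol, the active hormone of vitamin D, and 3 from cells given its solvent, ethanol, all harvested after 16 h. The protocol names charcoal-treated serum for treatments. The labels number the replicates without saying that they were separate cultures, so the spread behind the p-values is that among these arrays and may be technical. Each line stands for 1 tumour-derived culture, and a mean over cells cannot tell fewer expressing cells from less RNA per cell.

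Between 19295 and 21028 probes were detected per array. Of 8 colorectal epithelial markers, 6 were detected on all arrays of HCT116 (not VIL1 or GPA33), 8 in LS174T and 7 in SW480 (not GPA33). At most 2 of 6 fibroblast markers and 2 of 7 leukocyte and endothelial markers were detected on all 3 arrays of any group, namely CD79A in all groups but LS174T calcitriol, CD14 in the calcitriol groups of LS174T and SW480, COL1A1 in HCT116 and SW480, PDGFRB in SW480 and LUM in LS174T. PTPRC, CD3E and PECAM1 were not among them. CYP24A1, the calcitriol-degrading enzyme that serves as a check of the treatment, rose by 1.56 ± 0.10 (SE) log2 units in HCT116 and by 1.31 ± 0.10 in SW480, and went from undetected to 12.92 ± 0.16 (SD, n = 3) in LS174T. The mean level of VDR, the vitamin D receptor, in ethanol was 5.50 in HCT116, 8.29 in LS174T and 6.99 in SW480. In HCT116 it was near background, detected on 2 of 3 ethanol and 0 of 3 calcitriol arrays, and no VDR response passed.

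EPHA2, EPHA4, EPHB4, EFNA1, EFNA4 and EFNB1 were detected on all arrays of every line. The levels of most of the 11 probes differed among the lines in ethanol, and calcitriol changed 3 probes, all of them in LS174T. There EPHA4 fell 2.31-fold, EPHB4 rose 1.36-fold, and 1 of the 2 EFNA4 probes fell 1.39-fold. In HCT116 and SW480 none of the 11 probes passed with limma, while 0 and 3 had an unadjusted p under 0.05, as did 9.45% and 13.7% of all probes. In LS174T 8 of the 11 did, against 15.2% of all. The 3 of 11 probes in LS174T (27.3%) stand beside 3.61% of all 25586 probes called there, and the 0 of 11 beside 0.0391% in HCT116 and 1.2% in SW480. The 1 higher and 2 lower probes compare with 1.91% of all probes higher and 1.7% lower in LS174T. Averaged over the lines, EPHA4 was the 1 probe that passed, as did 1.48% of all. The median absolute difference of the 11 probes was 0.38 log2 units in LS174T against 0.13 over all probes, and 0.09 against 0.12 in HCT116 and 0.10 against 0.13 in SW480. Because the genes were chosen with earlier results of these data known, these shares and medians describe them and are no test of the family. In ethanol, 10 of the 11 probes differed among the lines by the moderated F-test, as did 70.1% of all probes. Pair by pair, 8 differed between LS174T and HCT116 (51.3% of all probes), 8 between SW480 and HCT116 (55.7%) and 9 between SW480 and LS174T (54.4%). All levels below are normalized log2 intensities in the order of replicates 1 to 3, all changes are differences of group means with the SE of the moderated fit, and adjusted p-values are limma's, adjusted by Benjamini-Hochberg over all probes tested with a threshold of 0.05.

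**Figure D1:**
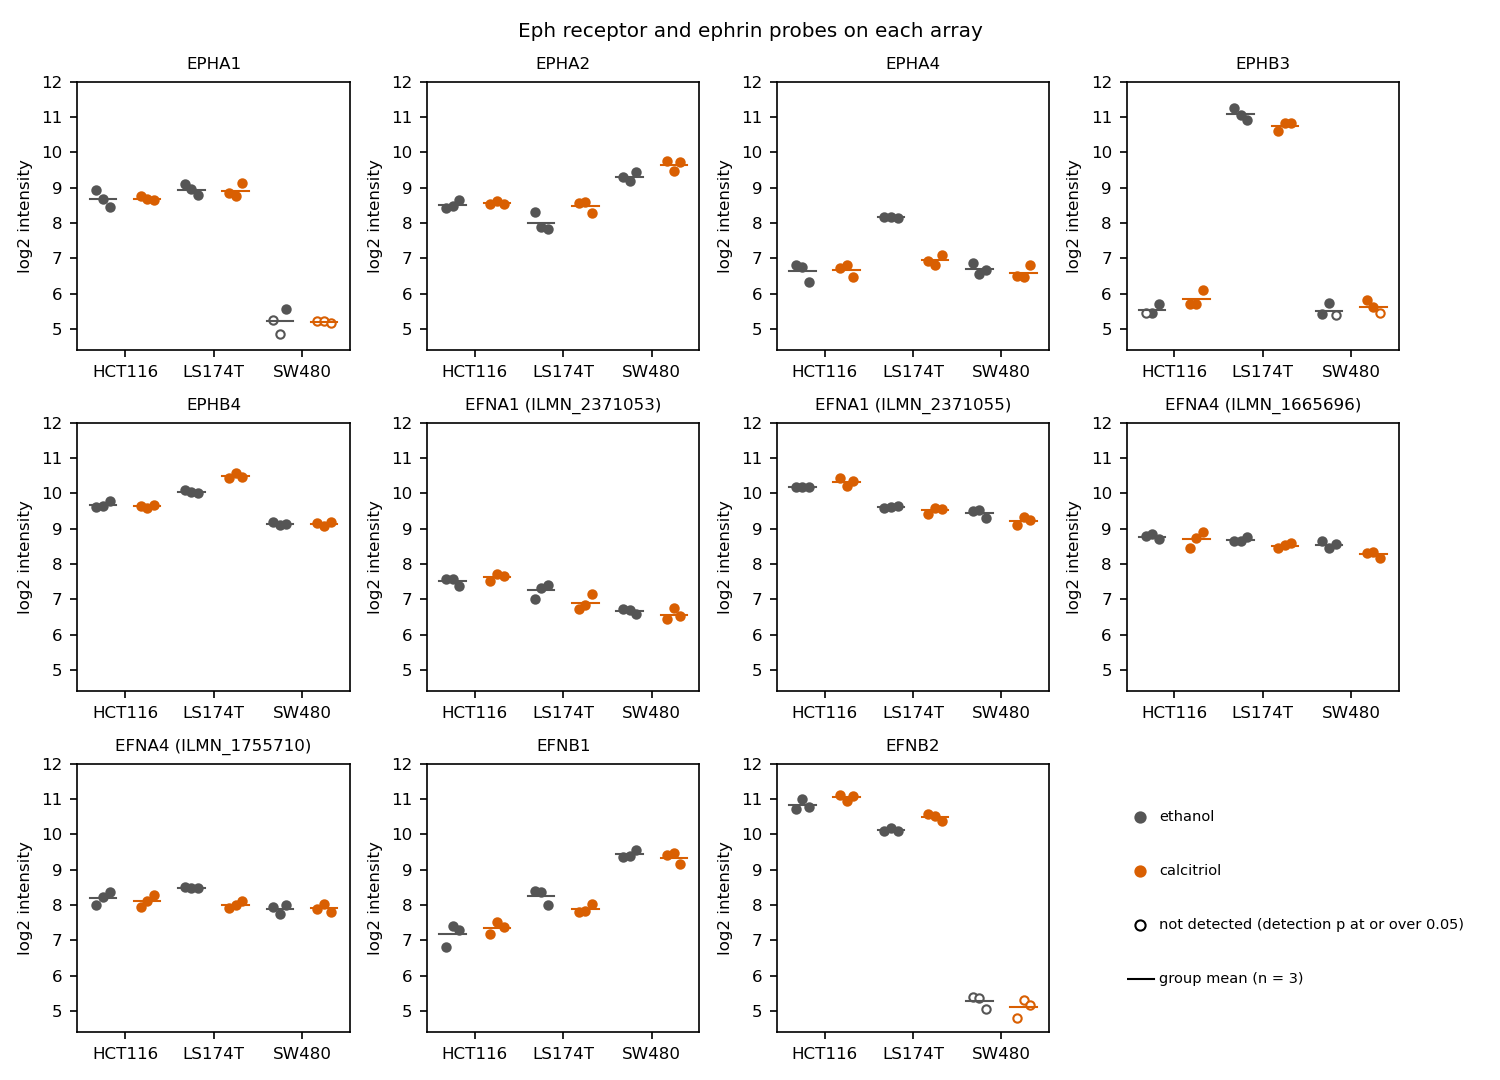
Normalized log2 intensity (vertical axes) of the 11 probes on each of the 18 arrays, grouped by line, with ethanol in grey, calcitriol in orange, group means as lines (n = 3) and open points where the probe was not detected. EPHB3 stands at 10.60 to 11.26 in LS174T and at or below 6.11 in the other lines, and EFNB2 is undetected on all 6 SW480 arrays.

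EPHA4, a receptor for ephrins of both classes, had the largest calcitriol difference of the 11 probes. In LS174T its level was 8.17, 8.17 and 8.15 with ethanol and 6.93, 6.81 and 7.11 with calcitriol. All calcitriol arrays lay more than 1 log2 unit under all ethanol arrays. The level fell by 1.21 ± 0.14 log2 units (95% interval of the difference -1.50 to -0.92, adjusted p = 4.75e-05). In HCT116 the level was 6.81, 6.77 and 6.34 with ethanol and 6.74, 6.82 and 6.47 with calcitriol. In SW480 it was 6.86, 6.57 and 6.67 with ethanol and 6.50, 6.48 and 6.80 with calcitriol. The groups overlapped in both lines, with differences of 0.03 (interval -0.26 to 0.33, adjusted p = 0.971) and -0.10 (interval -0.40 to 0.19, adjusted p = 0.813).

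The EPHA4 responses differed among the lines by the moderated F-test (adjusted p = 0.00297), which 2.86% of all probes passed. The response of LS174T minus that of HCT116 was -1.24 ± 0.20 (adjusted p = 0.00278, passed by 1.58% of all probes), and that of SW480 minus that of LS174T was 1.11 ± 0.20 (adjusted p = 0.00606, passed by 1.86%). The response of SW480 minus that of HCT116 was -0.14 (interval -0.55 to 0.28). In ethanol the EPHA4 level of LS174T exceeded that of HCT116 by 1.52 ± 0.14 (adjusted p = 9.96e-08) and SW480 minus LS174T was -1.46 ± 0.14 (adjusted p = 1.25e-07). These line differences use the same LS174T ethanol arrays as the response. With calcitriol the means were 6.95 in LS174T, 6.68 in HCT116 and 6.60 in SW480. Without background correction the LS174T difference was -0.73 (adjusted p = 4.81e-08).

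The genes outside the family whose level followed EPHA4 most closely over the 18 arrays were MT4, a metallothionein (Pearson r = 0.972), UGT2B10, a glucuronosyltransferase (r = 0.938), and ODAM (r = 0.937). In LS174T the difference was -1.59 for MT4, which 1 of 3 calcitriol arrays detected, and -1.66 for ODAM. UGT2B10 was undetected with calcitriol there, at least 2.16-fold lower. None of MT4, UGT2B10 and ODAM was detected in HCT116 or SW480. These correlations are descriptions over arrays of the same 3 lines, among which LS174T ethanol is the brightest group for EPHA4. Because the genes were picked by them, their lower levels with calcitriol in LS174T are no separate result. UGT2B10 passed the filter through the LS174T ethanol arrays alone.

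EPHB4, a receptor that mainly binds ephrin-B2, was the other receptor to change. In LS174T its level was 10.10, 10.04 and 10.00 with ethanol and 10.43, 10.58 and 10.47 with calcitriol. The groups were well apart, and the rise was 0.45 ± 0.08 (interval 0.28 to 0.61, adjusted p = 0.00286). In HCT116 the level was 9.60, 9.65 and 9.78 with ethanol and 9.65, 9.57 and 9.66 with calcitriol. In SW480 it was 9.20, 9.10 and 9.12 with ethanol and 9.17, 9.07 and 9.19 with calcitriol. Treated and control arrays overlapped in both, with differences of -0.05 (interval -0.21 to 0.12) and 0.00 (interval -0.16 to 0.17).

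By the same F-test the EPHB4 responses also differed (adjusted p = 0.0336). The response in LS174T was above that in HCT116 by 0.49 ± 0.11 (adjusted p = 0.0353, lost in 12 of 28 alternatives, 10 of them fits that leave out an array, and up to 0.339 with median scaling), whereas the difference of SW480 from LS174T of -0.44 did not pass (adjusted p = 0.0556). The call of the F-test was lost in 12 of the 18 fits that leave out an array (adjusted p up to 0.0935) and with median scaling (adjusted p = 0.0974). With only the 6 LS174T arrays in the fit the rise itself had an adjusted p of 0.0799. In ethanol the order of the lines was LS174T, HCT116 and SW480, where LS174T minus HCT116 was 0.37 (adjusted p = 0.000731) and SW480 minus HCT116 was -0.53 (adjusted p = 1.98e-05). With median scaling the latter was -0.15 and did not pass (adjusted p = 0.352). The closest followers of EPHB4 over the 18 arrays were CYP4F12 (r = 0.983), PASK (r = 0.976) and ANKRD22 (r = 0.975), with differences in LS174T of 1.29, 0.33 and 1.61. That of PASK did not pass (adjusted p = 0.0593), and CYP4F12 and ANKRD22 were undetected in SW480. As these genes were picked by correlation over the arrays that hold the EPHB4 rise, their differences are no separate result.

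The promoters of these 2 receptors are shown because they are the family members whose responses differed between lines. The windows run from 250 bases before to 50 after the transcript start, are from RefSeq on GRCh38.p14, and have CpG pairs in capitals. That of EPHA4 is chr2:221572255-221572554 (minus strand, 33 CpG pairs). RefSeq lists another start for EPHA4, with 12 pairs in its window. That of EPHB4 is chr7:100827474-100827773 (minus strand, 36 CpG pairs), and the median over 35116 windows was 14.

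EPHA4: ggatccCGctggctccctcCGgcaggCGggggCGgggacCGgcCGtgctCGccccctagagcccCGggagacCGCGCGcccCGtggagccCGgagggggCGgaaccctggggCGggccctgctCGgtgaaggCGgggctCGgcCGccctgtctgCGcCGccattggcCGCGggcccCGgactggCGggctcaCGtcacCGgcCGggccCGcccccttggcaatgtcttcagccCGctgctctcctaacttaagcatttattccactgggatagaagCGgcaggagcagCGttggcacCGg

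EPHB4: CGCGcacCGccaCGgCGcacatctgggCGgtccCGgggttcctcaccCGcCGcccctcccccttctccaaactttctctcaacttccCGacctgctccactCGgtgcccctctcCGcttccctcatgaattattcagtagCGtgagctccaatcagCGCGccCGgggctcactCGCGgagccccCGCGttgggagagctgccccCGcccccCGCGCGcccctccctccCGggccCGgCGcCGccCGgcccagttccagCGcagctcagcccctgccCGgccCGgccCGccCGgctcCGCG

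Each window was searched on both strands for the half-sites of the vitamin D receptor (AGGTCA or AGTTCA or GGGTCA or GGTTCA), for direct repeats of these with 3 bases between, for the TCF/LEF letters (CTTTGAA or CTTTGAT or CTTTGTA or CTTTGTT), and for the AP-1 letters (TGAGTCA or TGACTCA). A direct repeat holds 2 half-sites and is counted under both. None of these was found in either EPHA4 window or in that of EPHB4. Over all windows, 38.6% held a half-site, 0.074% a direct repeat, 13.8% the TCF/LEF letters and 4.95% those of AP-1. Of the 12 windows of the 10 genes, none held a direct repeat or the AP-1 letters. A half-site was found in EPHA1, EPHB2, EPHB3 and EFNA4, and the TCF/LEF letters in EFNA4 alone. A match is a run of letters and no measured site, and no match says only that these letters are not in this window.

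**Figure D2:**
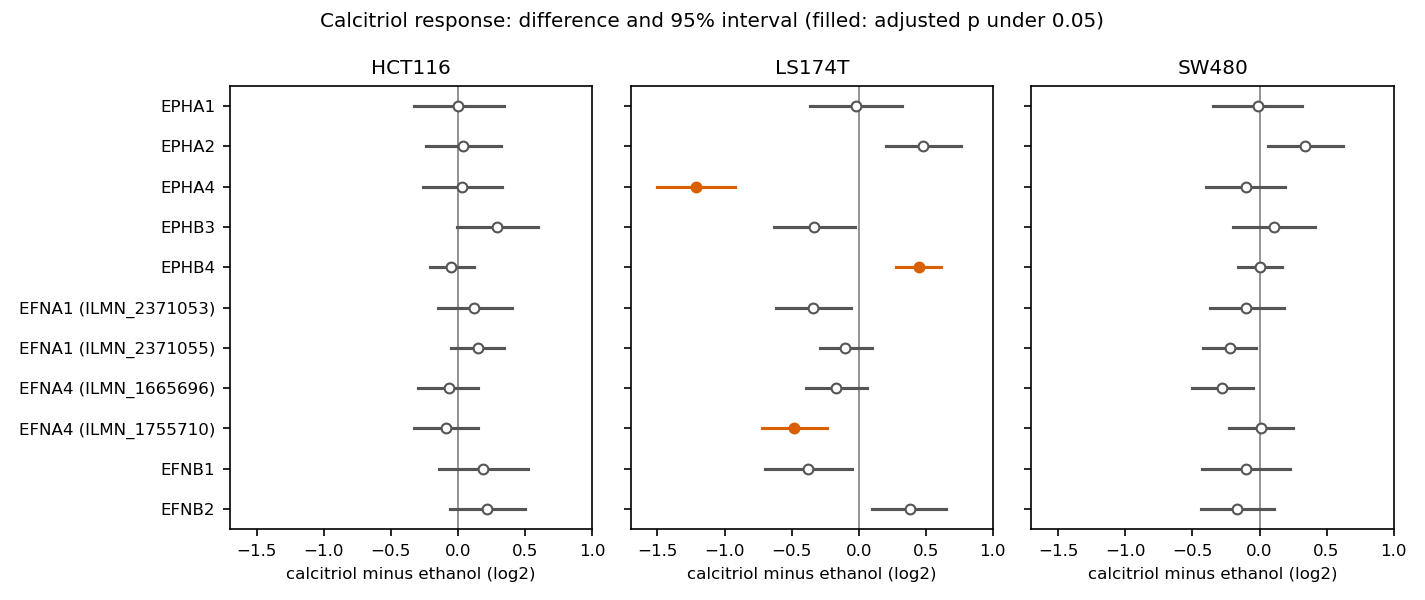
Calcitriol minus ethanol difference of mean log2 intensity (horizontal axes) of the 11 probes in each line, with 95% intervals from the moderated fit and filled orange points where the adjusted p is under 0.05. EPHA4 at -1.21, EPHB4 at 0.45 and 1 EFNA4 probe at -0.48 are filled, all in LS174T, and the HCT116 intervals all include 0.

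EPHA2, a receptor of epithelial cells for ephrin-A1, had positive differences in LS174T and SW480 that did not pass over all probes. In LS174T its level was 8.31, 7.89 and 7.82 with ethanol and 8.57, 8.60 and 8.29 with calcitriol. The ranges overlapped only by 1 ethanol array, replicate 1, and the difference was 0.48 ± 0.13 (interval 0.20 to 0.76, adjusted p = 0.0566). Without that array it was 0.63 and passed (adjusted p = 0.00931), and without calcitriol replicate 3 it was 0.58 (adjusted p = 0.0386). It also passed with all arrays under the stricter detection filter (adjusted p = 0.0336), with 1 probe per gene (adjusted p = 0.0355), with trend and robust settings (adjusted p = 0.0198) and without background correction (0.34, adjusted p = 0.02). In SW480 the level was 9.31, 9.20 and 9.43 with ethanol and 9.76, 9.47 and 9.73 with calcitriol. These groups did not overlap, and the difference was 0.34 ± 0.13 (adjusted p = 0.253). HCT116 read 8.42, 8.49 and 8.64 with ethanol and 8.53, 8.61 and 8.53 with calcitriol. The responses did not pass the test for a difference among lines (adjusted p = 0.344). Before treatment the order was SW480, HCT116 and LS174T, where SW480 minus HCT116 was 0.80 (adjusted p = 6.28e-05) and LS174T minus HCT116 was -0.51 (adjusted p = 0.00347), the latter being lost with median scaling (adjusted p = 0.0807).

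EPHA1, another A-class receptor, split the lines, and none of its calcitriol differences passed. It was detected on all HCT116 and LS174T arrays, at 8.92, 8.68 and 8.46 and at 9.09, 8.95 and 8.79 with ethanol. In SW480 it was 5.26, 4.86 and 5.58, where 1 of the 3 ethanol arrays and none of the calcitriol arrays detected it. SW480 minus HCT116 was -3.46 ± 0.16 (adjusted p = 1.58e-11), and -1.80 without background correction (adjusted p = 1.51e-16). With 2 of the 3 SW480 arrays not above background, the size of this difference depends on the correction. LS174T minus HCT116 was 0.25 (interval -0.08 to 0.59, adjusted p = 0.203). The calcitriol differences were 0.00, -0.02 and -0.01 in HCT116, LS174T and SW480, with intervals that ran from -0.36 to 0.34 at the widest.

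EPHB3, a crypt receptor and Wnt target, was bright in LS174T alone. Its level there was 11.26, 11.06 and 10.92 with ethanol and 10.60, 10.82 and 10.83 with calcitriol. In HCT116 it was 5.47, 5.45 and 5.72 with ethanol and 5.71, 5.70 and 6.11 with calcitriol. In SW480 it was 5.44, 5.73 and 5.40 with ethanol and 5.83, 5.62 and 5.46 with calcitriol. On these dim arrays the detection p ran from 0.0013 to 0.0558, at the edge of the background. LS174T was above HCT116 by 5.53 ± 0.14 (adjusted p = 8.15e-15) and SW480 minus LS174T was -5.55 ± 0.14 (adjusted p = 5.99e-15). Over the alternatives these differences ran from 3.78 to 5.62 and from -5.66 to -3.78, so their size depends on the processing. SW480 and HCT116 differed by -0.02 (interval -0.32 to 0.28). In LS174T all calcitriol arrays lay under all ethanol arrays, but the difference of -0.33 (interval -0.63 to -0.03) did not pass (adjusted p = 0.278). Without background correction it was -0.31 and passed (adjusted p = 0.02). Groups without overlap occurred for 20% of all probes in LS174T, 14.6% in HCT116 and 19.4% in SW480, and for 6, 1 and 2 of the 11 described here.

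**Figure D3:**
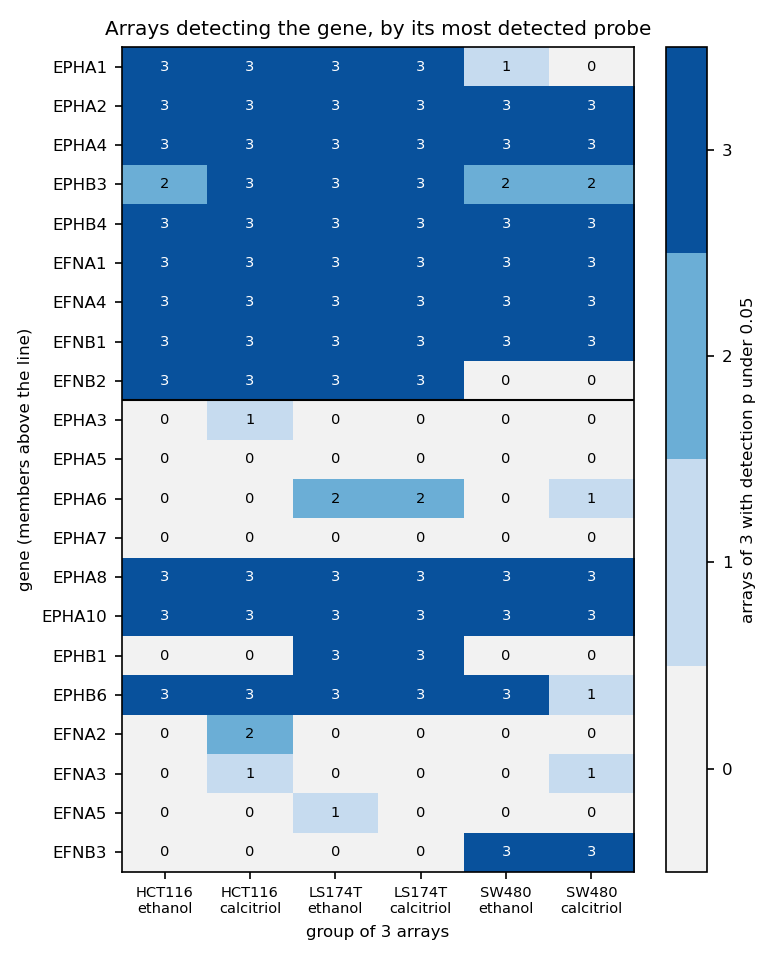
Number of the 3 arrays of each group (columns) with a detection p under 0.05 for each Eph receptor and ephrin gene (rows), taking its most detected probe. EFNB2 and EFNB3 change places between SW480 and the other lines, with 0 arrays against 3, and EPHA3, EPHA5, EPHA6, EPHA7, EFNA2, EFNA3 and EFNA5 are at 2 or fewer throughout.

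EFNB2, the main ligand of EPHB4, was bright in HCT116 and LS174T and undetected in SW480. Its level was 10.71, 11.00 and 10.78 with ethanol and 11.12, 10.93 and 11.08 with calcitriol in HCT116. In LS174T it was 10.08, 10.18 and 10.08 with ethanol and 10.58, 10.51 and 10.37 with calcitriol. In SW480 it was 5.40, 5.36 and 5.07 with ethanol and 4.81, 5.33 and 5.18 with calcitriol, with a detection p of 0.0506 to 0.468. Against SW480 in ethanol the level was at least 42.5-fold higher in HCT116 (adjusted p = 3.55e-15) and at least 25.9-fold higher in LS174T (adjusted p = 1.12e-14). For such a bound, each SW480 array counts at its own value or at the lowest value of any probe it detected, whichever is higher. The bounds hold for the deposited values only. Over the alternatives SW480 minus HCT116 ran from -5.82 to -3.63 and SW480 minus LS174T from -5.09 to -2.97. HCT116 was above LS174T, with a difference of LS174T from HCT116 of -0.72 (adjusted p = 0.000201). The calcitriol difference in LS174T, 0.38 (interval 0.10 to 0.65), separated all arrays of the groups but did not pass (adjusted p = 0.15). That in HCT116 was 0.22 (interval -0.06 to 0.50, adjusted p = 0.65), and EFNB2 in LS174T passed without background correction, at 0.34 (adjusted p = 0.00878).

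EFNB1, another transmembrane ligand, was detected on every array and ran in the opposite order. With ethanol its level was 9.37, 9.39 and 9.56 in SW480, 8.40, 8.36 and 8.01 in LS174T and 6.80, 7.42 and 7.29 in HCT116. The lines did not overlap, and neighbours in this order were apart by 1.18 (adjusted p = 5.48e-06) and 1.09 (adjusted p = 1.61e-05). With calcitriol the level was 9.40, 9.46 and 9.16 in SW480, 7.80, 7.83 and 8.02 in LS174T and 7.19, 7.51 and 7.37 in HCT116. No response passed, and the differences were -0.10, -0.38 (adjusted p = 0.244) and 0.19.

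The promoters of EPHB3 and EFNB2 are shown because they had the widest differences between lines in ethanol of the 9 genes measured. That of EPHB3 is chr3:184561535-184561834 (plus strand, 26 CpG pairs) and that of EFNB2 chr13:106535613-106535912 (minus strand, 49 CpG pairs), with CpG pairs in capitals. The EPHB3 window holds 1 receptor half-site, read as TGAACT at position -151 from the start, and no TCF/LEF letters, and the EFNB2 window holds none of the motifs searched.

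EPHB3: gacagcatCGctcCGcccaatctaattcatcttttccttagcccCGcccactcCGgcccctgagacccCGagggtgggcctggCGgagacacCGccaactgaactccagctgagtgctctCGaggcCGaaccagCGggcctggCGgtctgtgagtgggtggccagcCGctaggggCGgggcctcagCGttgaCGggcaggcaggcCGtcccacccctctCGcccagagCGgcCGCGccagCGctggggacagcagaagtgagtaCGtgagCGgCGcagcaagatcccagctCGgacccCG

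EFNB2: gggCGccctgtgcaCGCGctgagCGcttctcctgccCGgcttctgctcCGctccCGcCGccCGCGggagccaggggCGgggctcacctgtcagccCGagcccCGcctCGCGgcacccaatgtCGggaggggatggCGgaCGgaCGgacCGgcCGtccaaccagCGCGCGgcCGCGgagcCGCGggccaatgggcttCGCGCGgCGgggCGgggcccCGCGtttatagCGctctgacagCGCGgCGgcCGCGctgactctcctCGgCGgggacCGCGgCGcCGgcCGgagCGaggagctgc

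Of the A-class ligands, EFNA4 was read by probes for different RefSeq transcripts of the gene, of which 1 passed in LS174T. The difference between the probes was not tested. The probe ILMN_1755710 read 8.50, 8.47 and 8.48 with ethanol and 7.91, 8.01 and 8.10 with calcitriol in LS174T. The groups did not overlap, and the level fell by 0.48 ± 0.11 (interval -0.72 to -0.24, adjusted p = 0.0259). The call was lost in 5 of the 6 fits that leave out an LS174T array (adjusted p of 0.0538 to 0.108). It was also lost with median scaling (adjusted p = 0.119) and with only the LS174T arrays in the fit. The other probe, ILMN_1665696, read 8.65, 8.65 and 8.76 with ethanol and 8.44, 8.53 and 8.59 with calcitriol. It also separated the groups, by a smaller difference of -0.17 (interval -0.39 to 0.06) that did not pass (adjusted p = 0.512).

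In HCT116 and SW480 the EFNA4 differences lay between -0.28 and 0.01 and none passed. By ILMN_1665696 the difference of -0.28 in SW480 was larger than that of -0.17 in LS174T. The EFNA4 responses did not pass the F-test for a difference of response among lines by ILMN_1755710 (adjusted p = 0.176) or ILMN_1665696 (adjusted p = 0.696). The lines differed in ethanol for ILMN_1755710, where SW480 minus LS174T was -0.59 (adjusted p = 0.000285), and the other probe did not pass the F-test (adjusted p = 0.167). RefSeq also lists a readthrough gene that joins EFNA4 with its neighbour EFNA3 on chromosome 1, and whether the probes also read it was not tested. The closest followers of ILMN_1755710 over the arrays were CYB561D1 (r = 0.864), SPG21 (r = 0.86) and MAP3K6 (r = 0.836). SPG21 was near background, detected in the LS174T ethanol group alone at a mean of 5.50.

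EFNA1, the chief ligand of EPHA2, was highest in HCT116 by both probes. The brighter probe, ILMN_2371055, read 10.19, 10.19 and 10.18 in HCT116, 9.57, 9.62 and 9.65 in LS174T and 9.51, 9.52 and 9.31 in SW480 with ethanol. LS174T minus HCT116 was -0.57 (adjusted p = 5.41e-05) and SW480 minus HCT116 was -0.74 (adjusted p = 2.76e-06), and SW480 and LS174T did not differ past the threshold (-0.17, adjusted p = 0.136). By ILMN_2371053, which read 7.59, 7.57 and 7.37 in HCT116, 7.02, 7.32 and 7.42 in LS174T and 6.72, 6.71 and 6.59 in SW480, SW480 minus HCT116 was -0.84 (adjusted p = 3.5e-05). LS174T minus HCT116 was -0.26 by this probe, which did not pass (adjusted p = 0.112). With calcitriol the differences of the 2 probes were 0.15 and 0.12 in HCT116, -0.10 and -0.34 in LS174T and -0.22 and -0.10 in SW480, and none passed (adjusted p from 0.205 to 0.846).

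The remaining 12 Eph receptors and ephrins had 25 probes, of which 8 (of 6 genes) passed the filter. None of the 8 passed for calcitriol in any line with limma. In HCT116, LS174T and SW480, 1, 0 and 4 of the 8 had an unadjusted p under 0.05, against 9.45%, 15.2% and 13.7% of all probes. In ethanol 5 of the 8 differed among the lines by the moderated F-test, against 70.1% of all probes. Pair by pair, 3 differed between LS174T and HCT116 (51.3% of all), 4 between SW480 and HCT116 (55.7%) and 4 between SW480 and LS174T (54.4%). EFNB3, a transmembrane ligand known from the nervous system, stood at 8.99 ± 0.17 (SD, n = 3) in SW480 with ethanol and was undetected in the others, at least 11.8-fold over HCT116 and at least 11.6-fold over LS174T. EPHB1, a B-class receptor, was detected in LS174T alone, at 6.27 ± 0.25, at least 1.78-fold over HCT116. EPHB6, a receptor without kinase activity, stood at 7.13 ± 0.02 in HCT116, 6.32 ± 0.14 in LS174T and 5.72 ± 0.11 in SW480, and SW480 minus HCT116 was -1.41. These 3 genes were chosen for naming after their values were seen, so their line differences are given without p-values. EFNB3 and EPHB1 also passed the filter only through the line that detected them.

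Among 40 genes that carry Eph signals into the cell (among them adaptors, kinases, phosphatases and guanine nucleotide exchange factors), 34 were tested with 62 probes. In LS174T 2 probes were higher and 4 lower (9.68%, against 3.61% of all probes), and none passed in HCT116 or SW480. In each of these lines 9 of the 62 had an unadjusted p under 0.05, against 9.45% of all probes in HCT116 and 13.7% in SW480. VAV3, an exchange factor recruited by activated Eph receptors, fell in LS174T by both its probes, by 1.08 ± 0.16 (adjusted p = 0.000805) and 0.62 ± 0.13 (adjusted p = 0.0129). The first of these probes went from 6.84 ± 0.29 to 5.76 ± 0.37 (SD, n = 3), with 2 of 3 calcitriol arrays detecting it. The second went from 9.59 ± 0.04 to 8.97 ± 0.09. In SW480 neither was detected, and in HCT116 only the second was, on 2 of 3 ethanol arrays. PTPN13, a tyrosine phosphatase whose mouse form acts on B-class ephrins, fell by 0.57 by 1 probe (adjusted p = 0.0224), with its other probe at -0.20. FYN, a Src-family kinase, rose by 0.56 (adjusted p = 0.0294), while its other probes had differences of 0.64, 0.55 and -0.19 that did not pass.

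Wnt/beta-catenin targets, the gene class to which EPHB3 belongs, were followed with 30 probes of 21 genes. In LS174T 7 probes were lower and 1 higher (26.7% of the 30, against 3.61% of all probes), and in SW480 1 was lower (3.33%, against 1.2% of all probes). NKD1, a Wnt feedback inhibitor, fell by 1.16 ± 0.16 in LS174T (adjusted p = 0.000355), SP5, a transcription factor, went from 6.47 ± 0.41 (SD, n = 3) to undetected, at least 1.98-fold lower (adjusted p = 0.01), and RNF43, which removes Wnt receptors, fell by 0.51 (adjusted p = 0.00672). LGR5, the crypt stem cell receptor, rose by 0.62 ± 0.16 (adjusted p = 0.0365). DKK4, a secreted Wnt antagonist, fell by 1.22 ± 0.13 in SW480 (adjusted p = 0.00028). The median difference of the list was -0.07 in LS174T against -0.01 over all probes, and -0.17 against 0.00 in SW480. No probe of the list passed in HCT116 with limma (1 of 30 at an unadjusted p under 0.05, against 9.45% of all probes).

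**Figure D4:**
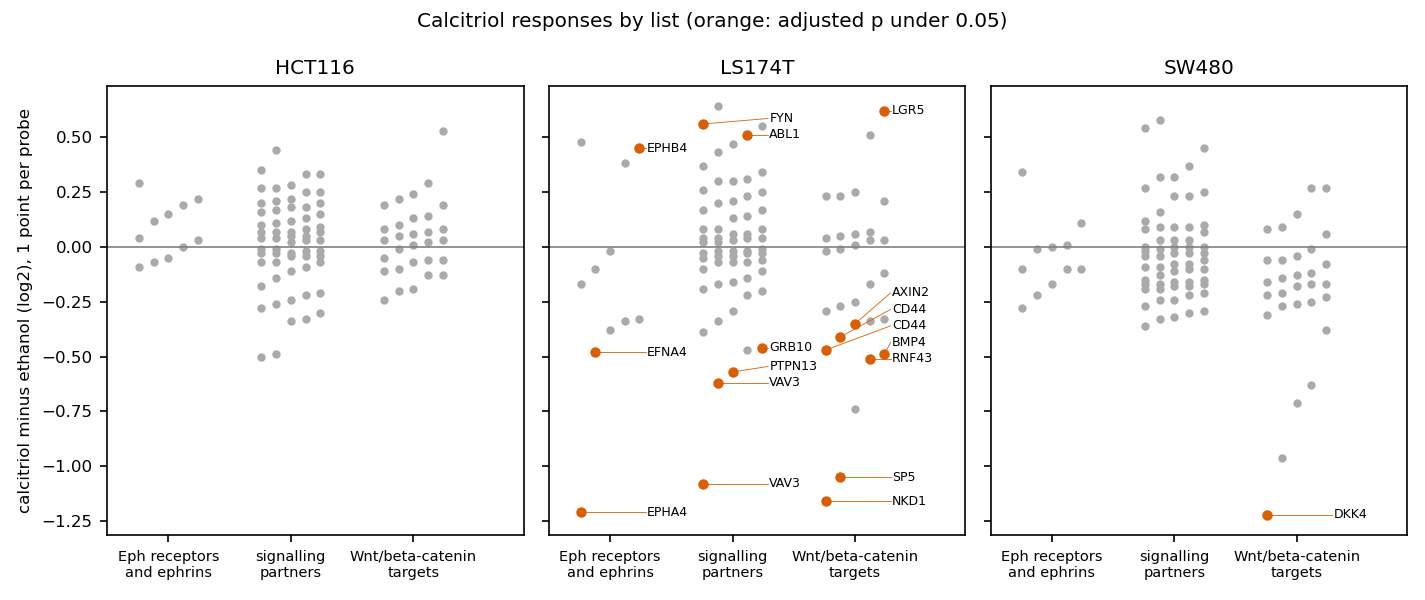
Calcitriol minus ethanol difference (log2, vertical axis) of every tested probe of the 11 family probes, the 62 probes of signalling partners and the 30 probes of Wnt/beta-catenin targets in each line, with probes past an adjusted p of 0.05 in orange and named. All orange points but DKK4 lie in LS174T, where EPHA4, VAV3, SP5 and NKD1 are lowest, SP5 being undetected with calcitriol.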

How the data were processed

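Per the file headers, the authors deposited raw linear probe intensity values, each next to a detection p-value, and a table of log2 values of the same 18 arrays, for which the submitters' processing notes name limma. The log2 values computed here from the intensities with neqc of limma 3.58.1 (R 4.3.3) differed from the deposited log2 values by a median of 0.000195 and at most 0.201, which puts the deposited values on the scale of background-corrected, quantile-normalized data. They were used as deposited. All 18 intensity columns correlated best with their own deposited array. The 887 rows without an identifier were left out. What summarised the beads is not given in sources used here.

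The platform annotation gave 1 gene symbol to 30113 of 47323 probes, 8 had several and 17202 were not listed there. For 30074 of the probes with 1 symbol the Entrez identifier was found in RefSeq (GRCh38.p14), and the RefSeq symbol was used, whether or not it differed. All 6 group means were fitted to the 18 arrays with lmFit and eBayes, 1 row per probe, with contrasts of calcitriol with ethanol in each line, their differences, and the lines in ethanol. The fit was tested on simulated data. The number of arrays limits the precision.

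The members and gene lists were chosen with earlier results of these data known. All probes of the members are named, with up to 4 probes past the threshold per line from each list of partners and Wnt targets, the checks CYP24A1, VDR and CDH1, and the 3 closest followers of each member that passed. CDH1, which encodes E-cadherin, rose by 1.23 ± 0.10 (SE) in SW480 and by 0.78 ± 0.10 in LS174T, with 0.40 in HCT116 (adjusted p = 0.219). Alternatives were the computed neqc values, no background correction, median scaling, no filter or a stricter one, 1 probe per gene, only the arrays compared, trend and robust settings, a replicate block, array brightness as a covariate, and leaving out each array. No slide is named in the files, so none was used as a block.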

Additional observations from a re-analysis of the deposited data

Results flagged for a closer look

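The calcitriol responses of the 3 lines differed, by the test of the difference itself, for EPHA4 (adjusted p = 0.00297) and for EPHB4 (adjusted p = 0.0336), both read by limma's moderated F-test over 18 arrays. For EPHA4 the differences were 0.03 in HCT116, -1.21 in LS174T and -0.10 in SW480, with all 3 LS174T calcitriol arrays under all 3 ethanol arrays. For EPHB4 they were -0.05, 0.45 and 0.00, with all 3 LS174T calcitriol arrays above the ethanol arrays. The part of the VDR level, which in ethanol was highest in LS174T, was not tested. Groups of 3 arrays are too small for the test of outlying samples.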

How the results depend on the processing

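Of 132 results on the 11 probes, 44 passed the threshold, and 36 of these passed under every alternative run. The fall of EPHA4 in LS174T was among them, from -1.29 to -0.73 with adjusted p of 4.81e-08 to 0.00325, as were the line differences of EPHB3, EFNB1, EFNB2 and EPHA1 that passed. The number of the 11 probes called in LS174T, 3, was 6 without background correction (adding EPHA2, EPHB3 and EFNB2) and 1 (EPHA4) with only the arrays compared. Over all 25586 probes the calls in LS174T, 924, were 1306 and 381 in these settings. With the stricter filter, with 1 probe per gene and with trend and robust settings EPHA2 also passed in LS174T. There 1111 of 18734, 829 of 13712 and 1119 of 25586 probes were called. Averaged over lines the number of the 11 probes called was 1 (EPHA4), and 2 (with EPHA2) without background correction, with the stricter filter and with trend and robust settings. Over all probes the calls of the average, 379, were 546, 493 and 444 in these settings. The number whose responses differed among lines, 2, was 1 with median scaling and with array brightness as a covariate. Leaving out single arrays gave 2 to 4 in LS174T, 1 to 2 for the average and 1 to 2 for the difference among lines. EPHB4 left the last of these in 12 of the 18 fits. The difference of EFNA4 (ILMN_1755710) between SW480 and HCT116 in ethanol, -0.30, turned to 0.02 with median scaling, which moved the median of all probes in that contrast by 0.14 and in the response of SW480 minus that of HCT116 or LS174T by -0.15 and -0.13. The cause of these changes was not tested. A slide block was not run because no slide is named, and a fit of only the arrays compared gives no value for the average or the difference among lines.

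Over all probes, the 10 called in HCT116 were 30 without background correction, 5 with median scaling or the brightness covariate, 6 with no filter or the replicate block, 17 with the stricter filter, 25 with trend and robust settings, 1 with only its arrays, and 5 to 13 leaving out single arrays. The 924 in LS174T were 598 with median scaling, 381 with only its arrays, and 612 to 1062. They were 1306 without background correction, 1111 with the stricter filter and 1119 with trend and robust settings. The 307 in SW480 were 484 with the stricter filter, 8 with only its arrays, 150 with the covariate, and 92 to 292, the lowest without ethanol replicate 2 and 101 without calcitriol replicate 1. The 379 of the average were 233 with median scaling. The 732 with differing responses were 1475 without background correction, 1142 with the stricter filter, 1156 with trend and robust settings and 478 with the covariate. With median scaling 69.9% of LS174T calls were higher against 52.8%, 7.96% against 32.6% in SW480, and 67.8% against 57% in the average.

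Same-numbered ethanol and calcitriol arrays of a line showed no shared deviation, with correlations of -0.09 to 0.01 in 9 pairs, and were not paired in the main fit. Whether same-numbered samples were set up together cannot be told from these correlations. With the replicate block (correlation -0.0549) the counts over the 11 probes stayed at 0, 3 and 0 in HCT116, LS174T and SW480, and no ethanol array correlated best with the calcitriol array of its number.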
